A study of Mus musculus with 36 samples.

Results

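Iron handling in tumour macrophages and CD8+ T cells was followed through 9 genes for iron storage, export and haem breakdown, chosen by name from the 24781 genes of the deposited count table. They encode the ferritin chains that store iron (*Fth1*, *Ftl1*), an importer and an iron transporter of the phagosome (*Tfrc*, *Slc11a1*), the exporter ferroportin (*Slc40a1*), enzymes of haem breakdown (*Hmox1*, *Blvrb*) and regulators of ferritin turnover and of iron sensing (*Ncoa4*, *Ireb2*). All 9 were present in the table.

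Macrophages take up iron with transferrin and with engulfed red cells, and haem oxygenase 1 opens the haem ring to free its iron. Iron that is not used is held in shells of ferritin heavy and light chains, the heavy chain being the one that oxidizes iron, or leaves the cell through ferroportin. Iron regulatory proteins bind hairpins called iron responsive elements in the mRNAs of ferritin, transferrin receptor and ferroportin, so that much of this control acts on translation and mRNA stability, and haem itself relieves repression of *Hmox1* and the ferritin genes by the transcription factor BACH1.

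The cells came from MC38 tumours, a mouse colon adenocarcinoma, collected on day 7. Each library was made from 100 sorted cells of 1 mouse by a 3′ method that tags every cDNA molecule, so that molecules and not reads were counted. Tumour-associated macrophages (TAMs) were sorted as CD45+CD11b+F4/80 high cells and CD8+ T cells as CD45+TCRbeta+CD8+ cells, and the authors deposited molecule counts per gene. Each cell type had 3 groups of 6 libraries: WT mice, B cell-deficient *muMt*-/- mice, and *muMt*-/- mice implanted with a pellet that releases GABA slowly. The labels give the treatment of the first pair of groups as none, where the paper describes a placebo pellet. The *muMt*-/- mice were C57BL/6J and the WT mice C57BL/6J or C57BL/6N, so the groups may differ in substrain. The labels give neither age nor sex, and the paper describes adult mice of both sexes across its experiments. *Xist* had 0 molecules in each of the 36 libraries and the Y-linked *Ddx3y* at least 1 molecule in all 36, which is the pattern of cells from male mice.

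TAM libraries held 206394 to 304100 molecules in WT mice, 100254 to 253608 in *muMt*-/- mice and 151856 to 262606 in GABA-treated *muMt*-/- mice. CD8+ T cell libraries were shallower, with 22896 to 76898, 51064 to 77839 and 65356 to 98015 molecules in the same groups. Levels are given below as normalized molecules, the count divided by the DESeq2 size factor of the library within its cell type. Fewer cells of a type and less RNA per cell cannot be told apart in such libraries.

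The cell types carried their defining markers. All 15 macrophage markers were detected in each TAM group, with a summed level of 2423 to 3202 normalized molecules in WT, 2307 to 2898 in *muMt*-/- and 1824 to 2675 in GABA-treated libraries and *Apoe* as the most abundant. In TAMs, T cell markers summed to at most 9.44 in WT, 6.45 in *muMt*-/- and 4.99 in GABA-treated libraries. All 10 T cell markers of the table were detected in each CD8+ T cell group, with sums of 118 to 376. Red cell markers summed to at most 8.13 in TAMs, and in CD8+ T cells reached 40.9 in 1 WT library. The sum of 7 B cell markers had a mean of 1.14 in WT, 1.96 in *muMt*-/- and 2.28 in GABA-treated TAMs, led by *Cd79b*.

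Some libraries stood apart, and the lowest macrophage marker sum of the TAMs, 1824, was in 1 of them, GABA replicate 1. The median correlation with the rest of its group was 0.782 for TAM *muMt*-/- GABA replicate 1, where the others of that group had 0.876 to 0.902. In CD8+ T cells it was 0.758 for *muMt*-/- replicate 1 and 0.743 for *muMt*-/- GABA replicate 1, where the others of those groups had 0.800 to 0.844 and 0.796 to 0.839. The shallower WT T cell libraries had 0.729 to 0.778 without 1 of them standing apart. The fibroblast gene *Col1a1* was at 319, 118 and 160 normalized molecules in TAM WT replicate 6, *muMt*-/- replicate 3 and *muMt*-/- GABA replicate 2, and at 16.7 or less in the other TAM libraries. Other stroma markers were not confined to these libraries. *Col3a1* was at 6.2 or more in every TAM library, with 120 in GABA replicate 6. Sums of 10 tumour and stroma markers were at 30.8, 98.5 and 1150 (lowest, median and highest) in WT TAMs. They were at 17.1, 118 and 475 in *muMt*-/- TAMs and at 129, 159 and 591 with GABA.

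The iron responsive elements of the ferritin chains and of the transferrin receptor are shown because they are the sites through which cellular iron acts on these mRNAs. *Hmox1* and *Slc40a1* were not searched. A search of the annotated untranslated regions (GENCODE vM21, GRCm38) looked on the transcript strand for a bulged C, 5 stem bases, the loop CAGTGN and 5 bases that pair with the stem, G with T pairs included. Of 7 members searched, 2 held it in the 5′ untranslated region and 1 in the 3′ region, against 28 of 20518 genes (0.136%) and 127 of 20865 genes (0.609%). *Fth1* held it at chr19:9982738-9982754 on the plus strand and *Ftl1* at chr7:45459785-45459801 on the minus strand. *Tfrc* held 4 matches on the plus strand, at chr16:32631225-32631241, chr16:32631604-32631620, chr16:32631669-32631685 and chr16:32631716-32631732. Capitals mark the 6 bases of the loop, and a match describes the letters and not binding.
Fth1 5′ UTR: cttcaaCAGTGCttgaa
Ftl1 5′ UTR: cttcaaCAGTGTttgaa
Tfrc 3′ UTR, match 1: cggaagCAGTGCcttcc
Tfrc 3′ UTR, match 2: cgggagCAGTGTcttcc
Tfrc 3′ UTR, match 3: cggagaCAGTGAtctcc
Tfrc 3′ UTR, match 4: cgggaaCAGTGTttccc

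In TAMs, the question of what the loss of B cells does to iron genes was answered by *muMt*-/- against WT mice. *Fth1* and *Hmox1* were higher and *Ftl1* was lower in *muMt*-/- mice, all by margins that did not pass the test over all genes. Of the 9 members, 8 had a mean above 1 normalized molecule and were tested, *Slc40a1* being below it. With edgeR 0 of the 8 had an adjusted p under 0.05, where 2.05% of the 9469 genes tested did (194 genes). At an unadjusted p under 0.05 there were 2 members, *Fth1* and *Hmox1*, where 14.9% of all genes reached it, and DESeq2 gave 0 members adjusted and 1 unadjusted, of 282 and 1111 genes. DESeq2 gave no adjusted p to *Tfrc*, *Ncoa4* and *Ireb2* here, so it could not call them. The median log2 fold change of the 8 members was -0.18, that of all genes tested -0.05. TAM *muMt*-/- libraries were also the shallower ones, as the numbers of molecules show. In a model that also held the log2 depth of each library (the depth covariate), *Fth1* was at 0.55 in log2 (adjusted p = 0.399 with edgeR), *Ftl1* at -0.02 and *Hmox1* at 0.51, so that the values of *Ftl1* and *Hmox1* depended on it, and 11 of all genes passed. Among the 15 macrophage markers edgeR called 4 in this comparison, 1 higher and 3 lower. The sum of 8 neutrophil markers had a median of 8.51 in WT, 23.4 in *muMt*-/- and 15.9 in GABA-treated TAMs, with 0 of 5 tested called and 1 at an unadjusted p under 0.05. The part of these markers in the result was not tested.

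*Fth1*, the ferritin heavy chain (chromosome 19 of mm10, 9980600 to 9985111), was at 916 normalized molecules in the lowest WT TAM library, with a median of 1073 and a highest value of 1497. In *muMt*-/- TAMs the lowest was 1232, the median 1500 and the highest 1986, and with GABA 855, 1457 and 1699. The groups overlapped: 3 of 6 *muMt*-/- libraries and 3 of 6 GABA-treated libraries lay above every WT library, and GABA replicate 1 lay below them all. The group means were 1133 ± 214, 1551 ± 320 and 1388 ± 306 (SD, n = 6 each). Between *muMt*-/- and WT mice its log2 fold change was 0.43 (standard error 0.16, adjusted p = 0.181 with edgeR).

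*Ftl1*, the ferritin light chain (chromosome 7, 45457944 to 45459886), ran the other way. Its lowest, median and highest values were 571, 618 and 805 in WT TAMs, 431, 530 and 638 in *muMt*-/- TAMs and 343, 554 and 700 with GABA. In *muMt*-/- and in GABA-treated mice alike, 3 of 6 libraries lay below every WT library and none above. Means were 644 ± 84.1, 532 ± 86.8 and 553 ± 136 (SD, n = 6 each). Its log2 fold change between *muMt*-/- and WT mice was -0.30 (standard error 0.16, adjusted p = 0.376 with edgeR).

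Within a library, the number of *Fth1* molecules per *Ftl1* molecule needs no scaling between libraries. In WT TAMs this ratio was 1.49 at the lowest, 1.79 at the median and 1.97 at the highest. In *muMt*-/- TAMs it was 2.68, 2.86 and 3.42, and with GABA 1.84, 2.59 and 3.31. All 6 *muMt*-/- libraries lay above every WT library, and 5 of 6 GABA-treated libraries did so. The GABA-treated group spread over the gap between the others, with 3 of its libraries below every *muMt*-/- library. Means were 1.76 ± 0.189, 2.90 ± 0.266 and 2.56 ± 0.510 (SD, n = 6 each), and no test was run on the ratio. It was not fitted with depth, and how many other gene ratios separate these groups was not counted.

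**Figure D1:**
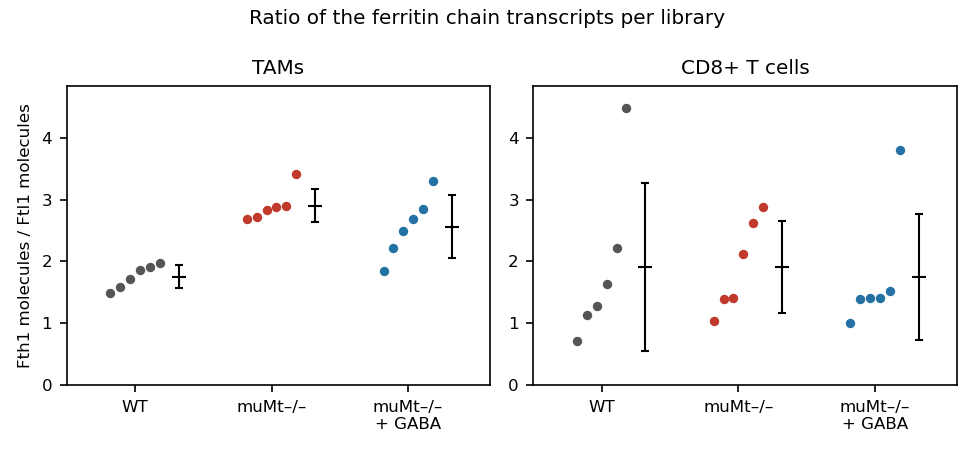
Ratio of *Fth1* to *Ftl1* molecules in each library (dots), with the mean and SD of each group of 6 beside them, for TAMs and CD8+ T cells. WT TAMs lie between 1.49 and 1.97 and *muMt*-/- TAMs between 2.68 and 3.42, while the CD8+ T cell groups overlap.

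The mouse genome holds ferritin pseudogenes close in sequence to these genes, of which *Ftl1-ps1*, *Ftl1-ps2*, *Ftl2-ps*, *Fth-ps2* and *Fth-ps3* are annotated and none is listed in the count table. How reads that map to several places were counted is not given in the sources used here, so the ratio describes the molecules assigned to each name.

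Among the genes of iron entry, *Tfrc*, the transferrin receptor (chromosome 16, 32608896 to 32632794), was sparse in TAMs. It was at 4.61, 7.15 and 17.9 normalized molecules (lowest, median and highest) in WT TAMs, 0, 8.44 and 11.2 in *muMt*-/- TAMs and 5.03, 7.73 and 18.6 with GABA. The groups overlapped, with 2 *muMt*-/- libraries below every WT library, 1 of them at 0. The log2 fold change between *muMt*-/- and WT mice was -0.27 (standard error 0.39, adjusted p = 0.832 with edgeR), and without WT replicate 1, which held the highest value, it was 0.05.

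*Slc11a1*, the NRAMP1 transporter that moves iron out of phagosomes (chromosome 1, 74375014 to 74386057), was at 34.1, 49.8 and 55.9 in WT TAMs. It was at 27.9, 57.6 and 76.1 in *muMt*-/- TAMs and at 29.2, 47.8 and 61.3 with GABA. In *muMt*-/- mice 3 libraries lay above every WT library and 1 below. The log2 fold change was 0.22 (standard error 0.20, adjusted p = 0.676 with edgeR).

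*Slc40a1*, ferroportin, the known exporter of cellular iron (chromosome 1, 45908070 to 45926532), was hardly detected. TAMs held 6 molecules of it in 18 libraries, 1 in WT, 1 in *muMt*-/- and 4 in GABA-treated *muMt*-/- mice, of which 3 were in GABA replicate 3. CD8+ T cells held 0 molecules in 18 libraries and 1154683 molecules, which allows up to 2.60 in 1000000. A difference between groups was not detectable at this depth.

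*Hmox1*, haem oxygenase 1 (chromosome 8, 75093618 to 75100593), was at 5.09, 14.3 and 22.1 normalized molecules (lowest, median and highest) in WT TAMs. It was at 9.76, 26.9 and 49.0 in *muMt*-/- TAMs and at 5.03, 17.1 and 33.5 with GABA. 3 of 6 *muMt*-/- libraries lay above every WT library and the other 3 within the WT range, and with GABA 2 lay above it and 1 below. Means were 14.0 ± 7.45, 27.6 ± 15.7 and 16.8 ± 10.9 (SD, n = 6 each). For *Hmox1* the log2 fold change between *muMt*-/- and WT mice was 0.83 (standard error 0.35, adjusted p = 0.242 with edgeR). Without the filter on low numbers it was 0.80 with an adjusted p of 0.0265.

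*Blvrb*, biliverdin reductase B, which acts on products of haem breakdown (chromosome 7, 27447978 to 27465981), was at 21.1, 24.3 and 35.2 in WT TAMs. Its values were 15.1, 20.2 and 28.0 in *muMt*-/- TAMs and 3.98, 23.1 and 33.0 with GABA. In *muMt*-/- mice 3 libraries lay below every WT library and none above. The value of 3.98 was in GABA replicate 1, the library that stood apart. The log2 fold change between *muMt*-/- and WT mice was -0.27 (standard error 0.25, adjusted p = 0.687 with edgeR), and with the depth covariate it was 0.02.

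The regulators were at a few molecules per library. *Ncoa4*, the receptor that delivers ferritin to lysosomes (chromosome 14, 32159879 to 32179855), had medians of 5.31 in WT, 5.60 in *muMt*-/- and 5.06 in GABA-treated *muMt*-/- TAMs. *Ireb2*, which encodes iron regulatory protein 2 (chromosome 9, 54862658 to 54912534), had medians of 6.72, 5.84 and 6.85. The groups overlapped for both genes. Their log2 fold changes between *muMt*-/- and WT mice were -0.18 and -0.19 (standard errors 0.42 and 0.32), and the depth covariate turned that of *Ncoa4* to 0.11.

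**Figure D2:**
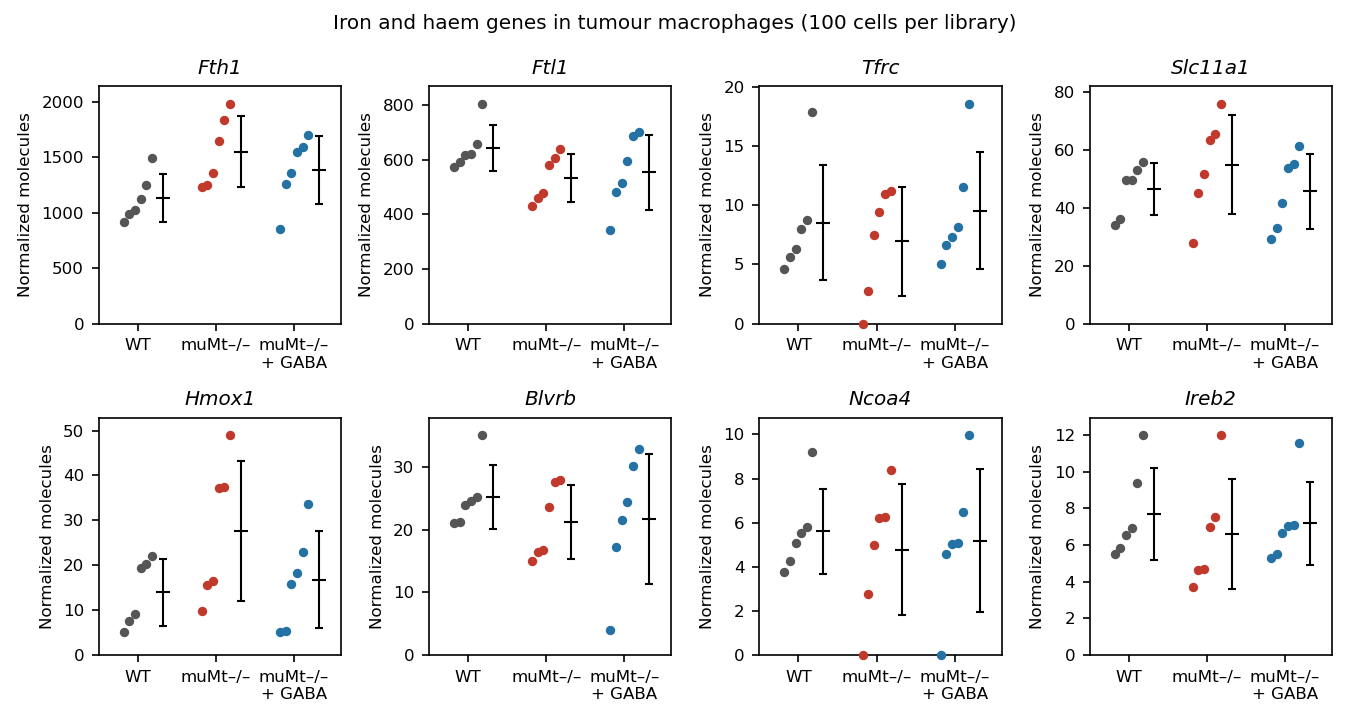
Normalized molecules of 8 members in TAM libraries (dots), with the mean and SD of each group of 6 beside them, the vertical axes starting at 0. *Fth1* has medians of 1073, 1500 and 1457 and *Ftl1* of 618, 530 and 554 in WT, *muMt*-/- and GABA-treated *muMt*-/- mice, and the groups overlap in each panel.

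The GABA pellet was asked about in TAMs by GABA-treated against other *muMt*-/- mice. *Hmox1* was lower with GABA, at -0.56 in log2 (standard error 0.35, adjusted p = 0.708 with edgeR) and 2 of 6 libraries below every *muMt*-/- library. *Tfrc* was at 0.40 and *Slc11a1* at -0.24, and the other 5 members tested lay between -0.13 for *Fth1* and 0.19 for *Ncoa4*. With edgeR 0 of 8 members passed, where 0.0211% of genes did (2 of 9469), and 0 members had an unadjusted p under 0.05, where 8.46% of genes did. DESeq2 gave 0 members adjusted and 0 unadjusted, of 62 and 580 genes. Some members, *Hmox1* and *Tfrc* among them, had no adjusted p from DESeq2 and could not be called by it. The members' median was 0.09 and that of all genes 0.06. The ferritin values rested in part on GABA replicate 1, without which *Fth1* was at -0.02 and *Ftl1* moved from 0.08 to 0.20. With the depth covariate *Ftl1* was at -0.08, *Blvrb* moved from 0.09 to -0.06, *Hmox1* was at -0.38 and *Tfrc* at 0.43. With single libraries left out, *Hmox1* ran from -0.86 to -0.37 and *Tfrc* from 0.19 to 0.67.

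GABA-treated *muMt*-/- TAMs were also set against WT TAMs, a comparison that shares its libraries with the ones above. In log2, *Fth1* was at 0.30 (standard error 0.16), *Ftl1* at -0.21 (standard error 0.16) and *Hmox1* at 0.27 (standard error 0.36). With edgeR 0 of 8 members passed where 0.0739% of genes did (7 of 9469), and 0 had an unadjusted p under 0.05, where 7.02% of genes did. DESeq2 gave 0 and 0, of 13 and 440 genes. Without GABA replicate 3, *Hmox1* was at -0.02.

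Genes around the members were read from 5 lists. In *muMt*-/- against WT TAMs, 0 of 7 tested genes of iron and haem entry, 0 of 6 chaperones and regulators of iron, 0 of 11 genes of haem synthesis, breakdown and transport, 1 of 16 genes of mitochondrial iron and iron–sulfur clusters and 2 of 15 genes of the NRF2 and BACH1 circuit passed with edgeR. At an unadjusted p under 0.05 these lists had 2, 1, 1, 3 and 4 genes, and DESeq2 called 0, 0, 0, 0 and 3. Pooled, 3 of 55 passed, where 2.05% of all genes did, and 11 had an unadjusted p under 0.05, where 14.9% did. Their median log2 fold change was 0.10, that of all genes -0.05.

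*Bach1*, the haem-sensing repressor of *Hmox1* and the ferritin genes (chromosome 16, 87698954 to 87733346), rose. It was at 17.4, 20.9 and 24.5 normalized molecules (lowest, median and highest) in WT TAMs, 28.6, 44.2 and 87.9 in *muMt*-/- TAMs and 17.5, 28.3 and 51.8 with GABA. Each of the 6 *muMt*-/- libraries lay above every WT library, and 4 of 6 GABA-treated libraries did so. The log2 fold change between *muMt*-/- and WT mice was 1.13 (standard error 0.23, adjusted p = 0.00468 with edgeR), and between GABA-treated and other *muMt*-/- mice -0.64 (standard error 0.23, adjusted p = 0.339). With the depth covariate the first of these was 0.79 with an adjusted p of 0.295.

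*Gsr*, glutathione reductase (chromosome 8, 33653238 to 33698162), rose from a median of 6.62 in WT to 12.9 in *muMt*-/- TAMs and was at 11.8 with GABA. *Glrx5*, a mitochondrial glutaredoxin of iron–sulfur cluster assembly (chromosome 12, 105032618 to 105040911), fell from 8.36 to 2.95 and was at 5.57 with GABA. All 6 *muMt*-/- libraries lay outside the WT range for each of *Gsr* and *Glrx5*. How many of all genes separated in this way, as *Bach1* also did, was not counted. The log2 fold changes of *Gsr* and *Glrx5* were 1.11 (standard error 0.30, adjusted p = 0.0372 with edgeR) and -1.33 (standard error 0.35, adjusted p = 0.0325). Between GABA-treated and other *muMt*-/- mice they were at -0.17 and 0.70, neither past the test. The calls were thin: *Gsr* kept its call in 4 and *Glrx5* in 5 of the 12 fits with a single library removed, and with the depth covariate they stayed at 1.06 and -1.23 with adjusted p-values of 0.295 and 0.324. The DESeq2 Wald test called *Gsr* (adjusted p = 0.0197). For *Glrx5* no adjusted p from DESeq2 was at hand, so its lack of a call there cannot be read as a result.

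The other genes named for their roles showed small differences between *muMt*-/- and WT TAMs. *Nfe2l2*, which encodes NRF2 (chromosome 2, 75675513 to 75704663), was at a log2 fold change of 0.13. *Slc48a1*, a haem transporter of the phagolysosome (chromosome 15, 97784365 to 97792692), was at -0.00 and turned to 0.02 with DESeq2's size factors. *Blvra*, biliverdin reductase A (chromosome 2, 127070629 to 127097084), *Aco1*, which encodes iron regulatory protein 1 (chromosome 4, 40143265 to 40199009), and *Pcbp1*, an iron chaperone that loads ferritin (chromosome 6, 86524480 to 86526189), were at -0.13, 0.12 and -0.13.

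In GABA-treated against other *muMt*-/- TAMs, 0 of the 55 genes of these lists passed with edgeR, 7 had an unadjusted p under 0.05, where 8.46% of all genes did, and DESeq2 called 0. In GABA-treated *muMt*-/- against WT TAMs these numbers were 0, 7 (7.02% of all genes) and 0.

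Over the 18 TAM libraries, the genes most like *Fth1* among 5307 compared were *Ass1*, argininosuccinate synthase (r = 0.917; chromosome 2, 31470270 to 31520670), *Pla2g7*, a secreted phospholipase (r = 0.890; chromosome 17, 43567994 to 43612202), and *H2-Eb1*, an MHC class II chain (r = 0.859; chromosome 17, 34305867 to 34316674), on log2 normalized molecules. Those most like *Ftl1* were *Ndufa7*, a subunit of respiratory complex I (r = 0.884; chromosome 17, 33824572 to 33838316), *S100a11*, a calcium-binding protein (r = 0.882; chromosome 3, 93520496 to 93526288), and *Cd52*, a surface glycoprotein (r = 0.882; chromosome 4, 134093538 to 134095073). The ferritin chains followed each other less closely (r = 0.337), and *Fth1* had r = 0.631 with *Slc11a1* and r = 0.591 with *Hmox1*. These are descriptions over 18 libraries that share groups and depth.

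In CD8+ T cells, *Fth1* and *Ftl1* were higher in *muMt*-/- than in WT mice, and 0 of 8 members tested passed with edgeR, as did 0% of the 6663 genes tested (0 genes). At an unadjusted p under 0.05 there were 2 members, *Fth1* and *Ftl1*, where 6.17% of all genes reached it (411 genes), and DESeq2 gave 0 members adjusted and 3 unadjusted, of 0 and 222 genes. Under TMM scaling the median change over all genes was 0.15 in log2 (0.06 with DESeq2's size factors), and for GABA-treated *muMt*-/- against WT mice at 0.21 (0.06), so that changes in these T cells are given relative to that median.

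*Fth1* was at 18.3, 45.2 and 128 normalized molecules (lowest, median and highest) in WT T cells, 57.2, 95.1 and 259 in *muMt*-/- T cells and 45.3, 102 and 222 with GABA. The highest WT library, replicate 5, lay within the *muMt*-/- range and far from the other WT libraries, and 2 of 6 libraries in each *muMt*-/- group lay above it. Relative to all genes the log2 fold change between *muMt*-/- and WT mice was 1.02, and as fitted 1.18 (standard error 0.35, adjusted p = 0.360 with edgeR). Without WT replicate 5 it was 1.64 with an adjusted p of 0.0252, and without *muMt*-/- replicate 1 it was 0.84 with an adjusted p of 0.869. With the depth covariate the value for *Fth1* was 0.67, where that for *Ftl1* was 1.07.

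*Ftl1* was at 21.6, 27.2 and 37.6 in WT T cells, 31.9, 51.5 and 122 in *muMt*-/- T cells and 32.8, 55.2 and 93.6 with GABA. In each *muMt*-/- group 5 of 6 libraries lay above every WT library. Relative to all genes the log2 fold change between *muMt*-/- and WT mice was 1.02, and as fitted 1.18 (standard error 0.27, adjusted p = 0.270 with edgeR). Without the filter on low numbers, *Fth1* and *Ftl1* passed with adjusted p-values of 1.04e-05 and 0.000186.

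Macrophage markers were also higher. Of 12 tested in *muMt*-/- against WT T cells all 12 were higher, 10 at an unadjusted p under 0.05, and edgeR and DESeq2 called 0. Markers low in WT T cells could pass the filter through the *muMt*-/- groups, so the number of higher ones rests partly on that choice. The sum of all 15 markers was 0, 10.3 and 66.3 normalized molecules (lowest, median and highest) in WT T cells, 32.7, 51.8 and 326 in *muMt*-/- T cells and 7.03, 68.7 and 179 with GABA. In WT T cells 0 to 12 of the 15 markers were detected per library, *Cd14* the most abundant, with *Adgre1*, *Mrc1* and *Pf4* at 0 in all of them. In *muMt*-/- T cells 9 to 14 were detected per library, again led by *Cd14*, and with GABA 6 to 15, led by *Itgam*, with none at 0 in either group. As a share of the WT TAM level, the markers' median was 1.22% in WT, 6.01% in *muMt*-/- and 7.82% in GABA-treated T cells, where that of *Fth1* was 13.2%, 27.6% and 28.8% and that of *Ftl1* 13.8%, 25.7% and 27.2%. When the summed marker level was added to the model, a step taken only once the data had been examined, the log2 fold changes between *muMt*-/- and WT mice were 0.16 for *Fth1* (adjusted p = 0.989 with edgeR) and 0.56 for *Ftl1* (adjusted p = 0.832). T cell markers had their lowest sums, 118 and 142, in *muMt*-/- replicate 1 and GABA replicate 1, the libraries with the most macrophage marker molecules. Markers of tumour and stroma had median sums of 13.6 in WT, 50.4 in *muMt*-/- and 16.1 in GABA-treated T cells, and 3 of 4 tested had an unadjusted p under 0.05 between the latter groups, none called. Beyond the fit with macrophage markers, the part of these markers in the result was not tested.

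**Figure D3:**
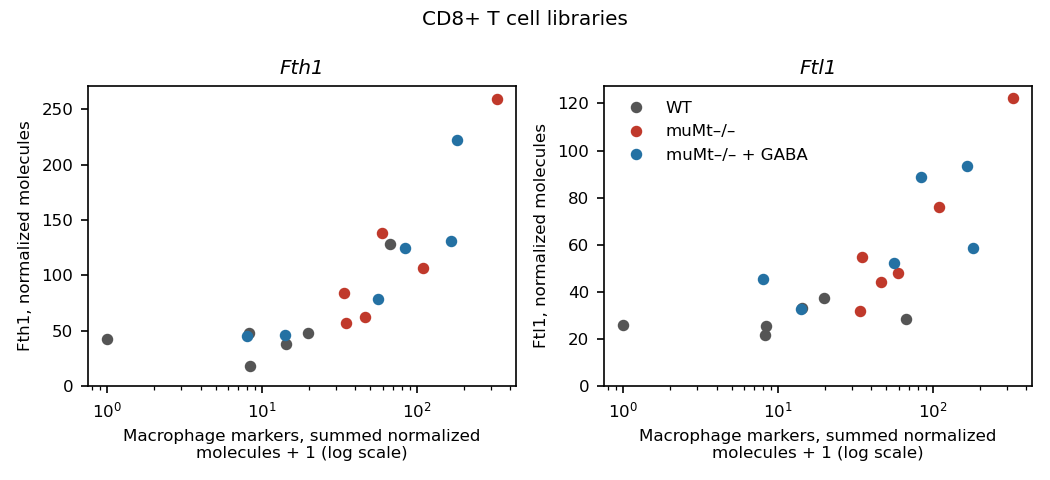
Normalized molecules of *Fth1* and *Ftl1* in each CD8+ T cell library against the summed normalized molecules of 15 macrophage markers plus 1 (log scale), coloured by group. The library with the most marker molecules, *muMt*-/- replicate 1 at 326, also has the most *Fth1* (259) and *Ftl1* (122).

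*Tfrc* was at 4.81, 12.4 and 24.0 (lowest, median and highest) in WT T cells, 5.20, 7.18 and 14.6 in *muMt*-/- T cells and with GABA at 8.67, 11.04 and 17.97. All *muMt*-/- libraries lay within the WT range. Relative to all genes its log2 fold change was -0.81, and as fitted -0.66 (standard error 0.34, adjusted p = 0.836 with edgeR). *Hmox1* had 3 molecules in WT T cells, all in replicate 5, 23 in *muMt*-/- T cells, of which 16 in replicate 1, and 14 with GABA, of which 13 in replicate 2. *Slc11a1* stayed at 4.05 normalized molecules or less and *Blvrb* at 4.34 or less in every T cell library. *Hmox1*, *Slc11a1* and *Blvrb* had WT means of 0.572, 0.631 and 0.822, and reached the filter through the *muMt*-/- groups. *Ncoa4* and *Ireb2* had WT medians of 1.49 and 2.53.

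With GABA, the T cells of *muMt*-/- mice differed little in ferritin. The log2 fold change was -0.06 for *Fth1* (standard error 0.33) and 0.05 for *Ftl1* (standard error 0.24), the latter turning to -0.02 with DESeq2's size factors, and *Tfrc* was at 0.53 (standard error 0.32, adjusted p = 0.999 with edgeR). *Ncoa4* was at 1.02 (standard error 0.59, adjusted p = 0.999 with edgeR) on 9 molecules without and 22 with GABA, and 4 of 6 GABA-treated libraries lay above every other *muMt*-/- library. Without *muMt*-/- replicate 1 *Fth1* was at 0.27, and without GABA replicate 1 at -0.43. With edgeR 0 of 8 members passed, as did 0% of genes, and 0 had an unadjusted p under 0.05, where 3.71% of genes did, and DESeq2 gave 0 and 0, of 0 and 133 genes. Against WT mice, which are the same libraries as before, GABA-treated mice had *Fth1* at 0.90 relative to all genes (1.11 as fitted, standard error 0.35, adjusted p = 0.458) and *Ftl1* at 1.02 (1.22 as fitted, standard error 0.26, adjusted p = 0.147). In that comparison 0 of 8 members passed with edgeR, as did 0% of genes, 2 had an unadjusted p under 0.05, where 6.89% of genes did, and DESeq2 gave 0 and 2, of 1 and 222 genes. Without GABA replicate 1, *Fth1* was at 0.70 as fitted, and with the depth covariate at 0.36, where *Ftl1* was at 1.06. With the macrophage marker level in the model, *Fth1* was at 0.21 and *Ftl1* at 0.72 in this comparison.

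The ratio of *Fth1* to *Ftl1* molecules in T cells ran from 0.714 to 4.48 in WT, 1.04 to 2.87 in *muMt*-/- and 1 to 3.80 in GABA-treated mice. The groups overlapped throughout, and the highest WT ratio was in replicate 5, the library with high *Fth1*. Of the genes of the 5 lists, 0 of 42 tested in T cells passed with edgeR in each of the 3 comparisons. At an unadjusted p under 0.05 there were 2 in *muMt*-/- against WT mice, 2 in GABA-treated against other *muMt*-/- mice and 7 in GABA-treated *muMt*-/- against WT mice, where 6.17%, 3.71% and 6.89% of all genes reached it, and DESeq2 called 0 in each.

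TAMs and CD8+ T cells of WT mice were then set side by side. In a fit to all 36 libraries, 6 of 8 members passed with edgeR, 5 higher in TAMs and 1 lower, where 22.7% of the 8477 genes tested did (1928 genes), and DESeq2 called 5 members, of 1666 genes. The median log2 fold change of all genes was 0.36 (0.20 with DESeq2's size factors) and that of the members 2.97. Relative to all genes, the log2 difference was 3.92 for *Slc11a1*, 2.74 for *Ftl1*, 2.74 for *Blvrb* and 2.64 for *Fth1*, and each of the 6 TAM libraries lay above every T cell library for these genes. As fitted, these were 4.27, 3.10, 3.10 and 2.995 (standard errors 0.53, 0.25, 0.57 and 0.33), with adjusted p-values of 3.52e-09, 4.25e-15, 2.26e-05 and 7.96e-11 with edgeR. *Slc11a1* and *Blvrb* rested on 4 and 5 molecules in WT T cells. With single libraries left out they ran from 3.98 to 4.88 and from 2.80 to 4.01, called in all 12 fits. With the depth covariate 3 members passed, *Ftl1* at 2.31, *Slc11a1* at 3.73 and *Tfrc* at -2.84 (adjusted p = 0.00398, 0.0114 and 0.0196 with edgeR). *Fth1* and *Blvrb* moved to 1.61 and 1.64 and *Hmox1* to 4.72, all without a call (adjusted p = 0.230, 0.499 and 0.112 with edgeR). Every WT TAM library held more molecules than any WT T cell library, so depth and cell type cannot be separated here. *Slc11a1*, *Blvrb* and *Hmox1*, 3 of the 5 members called higher, had means under 1 in WT T cells and were tested because of their levels in other libraries. How many of all genes separated the cell types without overlap was not counted, so the separation of 4 members is a description only. Overlap between the cell types was read on the share of each gene in all molecules of its library. Within a cell type it was read on normalized molecules.

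*Hmox1* was called at an adjusted p of 0.0337 on 113 molecules in TAMs against 3 in T cells. As shares of all molecules this was a ratio of 6.74 (95% exact counting interval 2.25 to 33.2), and with DESeq2's size factors the adjusted p was 0.0558. Its call was kept in 4 of the 12 fits with a single library removed, over which the log2 difference ran from 2.54 to 6.42. All 3 T cell molecules were in WT replicate 5, so without that library the difference has no exact size. *Tfrc* was lower in TAMs, at -2.47 relative to all genes and -2.11 as fitted (standard error 0.36, adjusted p = 4.92e-06 with edgeR). In molecules per 100 cells it did not stand apart, with 66 in 6 TAM libraries and 68 in 6 T cell libraries, so that the difference is one of shares, 45.0 against 259 in 1000000. *Ncoa4* and *Ireb2* were not called, at -0.08 and -0.20 relative to all genes (0.28 and 0.15 as fitted, turning to -0.56 and -0.22 with the depth covariate), and *Slc40a1* had 1 molecule in TAMs and 0 in T cells.

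Of the pooled lists, 16 of 51 genes passed with edgeR in this comparison, all higher in TAMs, where 22.7% of all genes passed and 1420 of those 1928 were higher, and DESeq2 called 10 of the 51. They were 2 of 6 genes of iron and haem entry, 2 of 5 chaperones and regulators, 3 of 11 haem genes, 1 of 14 mitochondrial genes and 8 of 15 genes of the NRF2 and BACH1 circuit, where DESeq2 called 2, 2, 0, 0 and 6. Relative to all genes, *Nfe2l2* was at 1.57, *Bach1* at 1.502 and *Mafg*, a small MAF partner of both (chromosome 11, 120625117 to 120634955), at 2.09. *Prdx1*, a peroxidase (chromosome 4, 116685599 to 116700000), was at 1.27, *Taldo1*, transaldolase (chromosome 7, 141392160 to 141402976), at 1.27, and *Fbxl5*, which targets iron regulatory proteins for degradation (chromosome 5, 43744618 to 43782149), at 1.12. *Lrp1*, a receptor that takes up haem bound to haemopexin (chromosome 10, 127538157 to 127621148), had 310 molecules in TAMs and 3 in T cells, a ratio of shares of 18.5 (95% exact interval 6.27 to 90.2, for counting error alone). All 3 were in WT replicate 5, the WT T cell library with the most macrophage marker molecules. Without it no WT T cell molecule was left, so the log2 difference, fitted at 7.87 against 4.40 before, has no exact size. *Lrp1* and *Mafg* had means of 0.572 and 0.902 in WT T cells, under the filter of 1, and were tested because of their levels in other libraries. With the depth covariate *Nfe2l2*, *Bach1* and *Mafg* were at 1.97, 2.30 and 2.99 as fitted (1.93, 1.86 and 2.44 without it) and were no longer called (adjusted p = 0.212, 0.177 and 0.0995 with edgeR). *Prdx1*, *Taldo1* and *Fbxl5* moved to 0.72, 0.91 and 0.94 (from 1.63, 1.62 and 1.48), also without a call (adjusted p = 0.665, 0.549 and 0.697 with edgeR). Single T cell libraries also weighed on these values: with 1 library left out *Fbxl5* ran from 1.22 to 2.34, highest without WT replicate 5, and *Mafg* from 2.12 to 4.11, highest without WT replicate 6.

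Whether B cell loss had a different effect in the cell types was tested as the difference between their log2 fold changes. *Ftl1* was the member with the largest difference for its error, lower in *muMt*-/- TAMs and higher in *muMt*-/- T cells. The median of all genes in this test was -0.30 (-0.11 with DESeq2's size factors). Relative to it the difference was -1.21 for *Ftl1* (-1.51 as fitted, standard error 0.33, adjusted p = 0.106 with edgeR) and -0.48 for *Fth1* (-0.78 as fitted, standard error 0.43, adjusted p = 0.552). With the depth covariate *Fth1* was at -0.05 and *Ftl1* at -1.12 with an adjusted p of 0.843. With edgeR 0 of 8 members passed, where 0.0118% of genes did (1 of 8477), 1 had an unadjusted p under 0.05, where 10.1% of genes did, and DESeq2 called 1 member of 38 genes, *Ftl1*, at an adjusted p of 0.0215. A replicate block in edgeR also called *Ftl1* (adjusted p = 0.0296), as did the fit with no filter (adjusted p = 0.000197). That block took TAM and T cell libraries of the same group and number as 1 mouse, a pairing that was assumed. In 21 of 24 fits with a single library removed *Ftl1* was not called (adjusted p up to 0.208), and it passed in 3, without CD8+ WT replicate 5 (adjusted p = 0.0478 with edgeR), *muMt*-/- replicate 2 (0.0204) or *muMt*-/- replicate 6 (0.0460).

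Macrophage markers moved with this difference too: all 15 had a negative value, with a median of -2.51, 11 had an unadjusted p under 0.05, edgeR called 0 and DESeq2 4, and their part in the result was not tested. These markers could pass the filter through their TAM levels. For the effect of GABA, 0 of 8 members differed between the cell types with edgeR, as did 0% of genes, 0 had an unadjusted p under 0.05, where 4.53% of genes did, and DESeq2 gave 0 and 0, of 0 and 361 genes. Of the pooled lists, 0 of 51 genes passed in either of these tests with edgeR, 4 and 3 had an unadjusted p under 0.05, where 10.1% and 4.53% of all genes did, and DESeq2 called 0 in each.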

How the data were processed

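Per the labels and the paper, the authors aligned reads with STAR to mm10 with a refFlat annotation and deposited molecule counts per gene. The deposited counts were used unchanged. Genes were tested with edgeR 4.0.16 (TMM scaling, quasi-likelihood F-test) in a fit to each cell type, and in a fit to all 36 libraries for comparisons of the cell types. Genes with a mean above 1 normalized molecule were tested, and a gene was called at a Benjamini-Hochberg adjusted p under 0.05 over all genes tested. Ranges, means and SD are of counts divided by DESeq2 1.42.0 size factors. limma 3.58.1, R 4.3.3 and Python 3.11.15 were also used.

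The members and lists were chosen with earlier results of these data known. The lists held genes of iron and haem entry, chaperones and regulators of iron, haem synthesis and breakdown, mitochondrial iron and iron–sulfur clusters, the NRF2 and BACH1 circuit, and markers of macrophages, T cells, B cells, red cells, neutrophils and stroma. A list of 5 genes for sex was also read. A list gene was named when it was called and had a mean of 5 or more normalized molecules, up to 5 per list, and some more were named for their roles.

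Outside the replicate block, replicate numbers were not treated as pairs. Correlations of residuals between libraries of the same number ran from -0.208 to 0.119 in TAMs, -0.394 to 0.45 in CD8+ T cells and -0.043 to 0.287 between the cell types. For different numbers these ranges were -0.237 to 0.316, -0.506 to 0.371 and -0.24 to 0.175. Mean correlations were -0.002, 0.021 and 0.048 for the same number, and 0.001, -0.004 and -0.009 for different numbers. Results were refitted in 7 other ways (DESeq2 size factors in edgeR, the DESeq2 Wald test, filterByExpr, no filter, a replicate block, log2 depth as a covariate, each library left out) and 1 added after seeing the data (the macrophage marker level as a covariate). The code was checked on simulated data. ERCC spike-ins are described in the labels and were not used here.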

Additional observations from a re-analysis of the deposited data

Results flagged for a closer look

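In 38 groups of 6 libraries with enough molecules, a library was named when its distance to the next one took up most of the range of its group. This happened 9 times, where about 1 in 20 groups would be named by chance. The values were 128 normalized molecules of *Fth1* in CD8+ WT replicate 5, 804.8 of *Ftl1* in TAM WT replicate 5, 17.91 of *Tfrc* in TAM WT replicate 1 and 17.97 of *Tfrc* in CD8+ *muMt*-/- GABA replicate 3. They were also 9.227 of *Ncoa4* in TAM WT replicate 2, 11.54 of *Ireb2* in TAM *muMt*-/- GABA replicate 2 and 35.16 of *Blvrb* in TAM WT replicate 5. The ratio of *Fth1* to *Ftl1* stood out at 3.417 in TAM *muMt*-/- replicate 6 and at 3.804 in CD8+ *muMt*-/- GABA replicate 1. All these libraries were kept.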

How the results depend on the processing

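Of 334 values refitted under other settings 296 kept their call and direction, and of 696 with 1 library left out 643 did. The cause of the differences was not tested. With log2 depth as a covariate, the genes called were 11 in *muMt*-/- against WT TAMs, 5 with GABA against *muMt*-/- TAMs, 3 with GABA against *muMt*-/- CD8+ T cells and 399 in WT TAMs against T cells, where 3 members were called. Direction turned for *Ncoa4* (0.11) and *Blvrb* (0.0197) in *muMt*-/- against WT TAMs, *Ftl1* (-0.0817) and *Blvrb* (-0.0589) with GABA in TAMs, *Ftl1* (-0.00725) with GABA in T cells, and *Ncoa4* (-0.56) and *Ireb2* (-0.22) in WT TAMs against T cells.

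With no filter, members called were 1 in *muMt*-/- against WT TAMs (*Hmox1*), 2 in *muMt*-/- against WT T cells, 2 in GABA-treated against WT T cells and 1 in the difference of B cell loss between cell types. All genes called were 343, 51 and 63 in TAMs (*muMt*-/- against WT, GABA against *muMt*-/-, GABA against WT), 72, 11 and 64 in T cells, and 79 and 17 in the differences of B cell loss and of GABA. With filterByExpr these were 295 and, for GABA against WT, 2 in TAMs, 1166 in WT TAMs against T cells and 0 for the difference of B cell loss, with *Slc48a1* at 0.0192 in TAMs and *Ftl1* at -0.0369 with GABA in T cells. The DESeq2 Wald test called 62 and 13 genes for GABA against *muMt*-/- and against WT in TAMs, 1 for GABA against WT in T cells and 38 for the difference of B cell loss (1 member), with *Slc48a1* at 0.0422 and *Ftl1* at -0.0214. DESeq2 size factors gave 1 gene for GABA against WT in T cells and 0 for the difference of B cell loss, with *Slc48a1* at 0.0196, *Ftl1* at -0.0198 and *Ireb2* at -0.00354. The replicate block gave 4 genes for GABA against *muMt*-/- in TAMs, 2 and 1 for GABA against *muMt*-/- and WT in T cells, 12 (1 member, *Ftl1*) and 1 for the differences of B cell loss and GABA. The macrophage marker covariate, chosen after seeing the data, gave 5 and 10 genes for GABA against *muMt*-/- and WT in T cells, and *Fth1* at 0.0517 in the former.

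With each library left out, genes called ranged over 67–231, 2–36 and 2–9 in TAMs, 0–13 (members 0–1), 0–1 and 0–1 in T cells, and 0–9 (members 0–1) and 0–2 for the differences, with members 5–6 in WT TAMs against T cells. In *muMt*-/- against WT TAMs *Tfrc* ran from -0.54 to 0.0472, *Slc48a1* from -0.18 to 0.23, *Aco1* from -0.00956 to 0.26, *Glrx5* from -1.50 to -1.22 and *Gsr* from 0.98 to 1.21. With GABA in TAMs *Ftl1* ran from -0.000941 to 0.20, *Ncoa4* from -0.0934 to 0.38, *Ireb2* from -0.0577 to 0.50, *Blvrb* from -0.0661 to 0.27, and against WT *Hmox1* from -0.0169 to 0.45. In T cells *Fth1* ran from 0.84 to 1.64 against WT, and with GABA from -0.43 to 0.27 and *Ftl1* from -0.15 to 0.29. In WT TAMs against T cells *Hmox1* ran from 2.54 to 6.42, *Ncoa4* from -0.0269 to 0.80 and *Ireb2* from -0.0625 to 0.29, and for the difference of B cell loss *Ftl1* from -1.68 to -1.23. Without CD8+ WT replicate 5 no *Hmox1* molecule was left in WT T cells, so its difference there has no exact size.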

Other observations

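Y-linked genes were detected in most libraries, *Ddx3y* in 36, *Eif2s3y* in 35, *Uty* in 29 and *Kdm5d* in 21 of 36. Sorted pools of 100 cells limit what can be read here: genes at a few molecules per library have wide errors, mRNA was measured and not protein or iron, and groups differed in depth. Several results for *Ftl1* and *Hmox1* in TAMs and for *Fth1* in T cells depended on depth when it was added as a covariate. Those for *Fth1* and *Ftl1* in T cells against WT mice depended on the macrophage marker level when that was added. Most of the comparisons share libraries.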
